A study of Mus musculus with 4 samples.

Results

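The genes examined here are those of cholesterol synthesis, of its control by the transcription factor SREBP2, and of intracellular sterol handling, 30 genes listed by symbol. Of these, 27 had a probe set named for that gene alone, and Acat2, Soat1 and Nr1h2 were not analysed here. All 27 were bright enough to be tested, among 11360 tested genes of 18193 with a probe set of a single symbol. Each gene is represented by its brightest probe set. RNA came from mammary tissue of 2 mice of genotype STAT5 WT (wild type) and 2 of genotype STAT5 KO (knockout), with 1 array per mouse. All 4 mice were sampled at 6 days per the series' design text, which does not name the event counted from. Strain, age, the deleted allele and any Cre driver are not given in the sources used here. Signals are MAS5 intensities on a linear scale, and log2 differences are KO minus WT of log2(signal + 16), which understates the change of dim genes. A gene was called changed where limma gave a Benjamini-Hochberg adjusted p under 0.05 over all tested probe sets.

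Cholesterol is built from acetyl-CoA through mevalonate, isoprenoid pyrophosphates, squalene and lanosterol. When membranes of the endoplasmic reticulum hold little sterol, SCAP escorts SREBP2 to the Golgi, where it is cut to release a transcription factor that switches on most enzymes of the pathway. When sterol is plentiful, the INSIG proteins hold SCAP back, and oxysterols activate the LXR receptors, which drive sterol export. In the mammary gland the pathway is known to supply membranes of growing epithelium and the sterol of milk, and fat cells of the gland express it as well. In RNA from whole tissue, fewer cells of a type and less RNA per cell cannot be told apart.

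Most enzymes of the pathway stood lower in KO, but squalene epoxidase alone passed the test. Of 19 enzymes measured, 16 had a log2 difference below 0, where 51.5% of all tested genes did. Sqle fell by 1.75 on the log2 scale, and the other 18 enzymes were not called, against a background of 1.36% of all tested genes called lower and 1.21% called higher. Both KO arrays lay below both WT arrays for 11 enzymes and above them for 2, against 27.5% and 26.2% of all tested genes. The unadjusted limma p was under 0.05 for 9 enzymes lower and 0 higher in KO, against 10.8% and 10.4% of all tested genes. The median log2 difference was -0.71 over the enzymes and -0.0099 over all tested genes. General epithelial markers had a median of -0.40 over both KO arrays, with 18 of 24 below 0 and 6 above. Their median difference from WT was -0.64 on KO replicate 1 and -0.16 on KO replicate 2. For the enzymes it was -0.25 and -1.19. The part of these markers in the result was not tested. Centring the arrays on those markers moves the log2 difference of every gene by the same amount. The enzyme median was then -0.35 beside 0.35 for all tested genes. The number of the 27 genes lower at an unadjusted limma p under 0.05 went from 10 to 3. Among all tested genes, 63 were called lower and 197 higher in that fit, against 154 and 138 without the centring. Their share at the unadjusted p was not counted there. The other 8 measured genes, which act in control, transport and sterol sensing, had a median of 0.057, and none of them was called (unadjusted limma p under 0.05 for 1 lower and 2 higher).

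**Figure D1:**
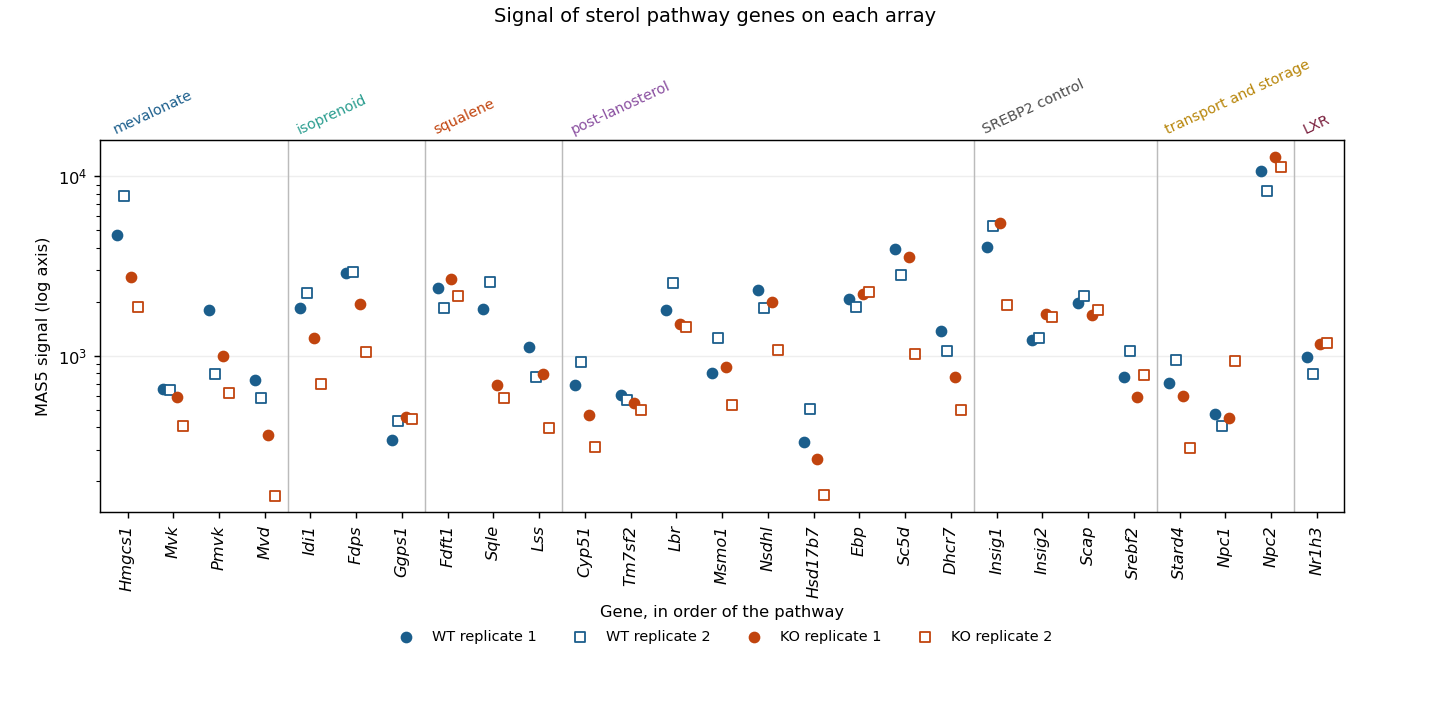
MAS5 signal (log axis) of the 27 measured genes on each of the 4 arrays, ordered by pathway step; filled circles are replicate 1, open squares replicate 2, blue WT and orange KO. Both KO arrays lie below both WT arrays for Sqle, Hmgcs1, Mvd and Idi1, whereas for Sc5d and Insig1 KO replicate 2 stands apart from the other 3 arrays.

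The mevalonate steps were low on KO replicate 2 throughout. Hmgcs1, whose cytosolic synthase makes HMG-CoA, gave signals of 4690.35 and 7785 for WT replicates 1 and 2 and of 2736 and 1874 for KO replicates 1 and 2. The WT arrays were far apart, and both KO arrays lay below them. The log2 difference of -1.41 (SE 0.27) missed the threshold (limma adjusted p = 0.0552). Hmgcs1 was called lower once WT replicate 1 was left out (-1.77, adjusted p = 0.0494), and also when KO replicate 1 was (-1.68, adjusted p = 0.0218). The other 3 tested Hmgcs1 probe sets gave smaller differences, from -0.96 to -0.81.

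Mvd, which decarboxylates mevalonate pyrophosphate to isopentenyl pyrophosphate, stood at 735 and 583 in WT and at 361 and 167 in KO. Its KO signals did not overlap the WT signals, and KO replicate 2 was the lowest by far. The difference was -1.35 (SE 0.34, limma adjusted p = 0.0922), and the other Mvd probe set gave -1.80 (adjusted p = 0.0507). Mvk, the mevalonate kinase gene, was at 653 and 648 in WT and at 593 and 406 in KO. For Mvk, KO replicate 1 was close to the WT pair and KO replicate 2 stood at 62.4% of the WT mean. Pmvk, the gene of the next kinase, stood at 1790 and 793 in WT and at 999 and 618 in KO. Here the spread of the WT arrays covered KO replicate 1, and the difference of -0.59 had an SE of 0.39.

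The promoter stretches of 3 enzyme genes are shown as the members with the smallest limma p after Sqle, and those of Insig1 and Ebp, chosen after their values were seen, as a gene on which the KO arrays split and an enzyme that was not lower. The sequences are the 250 bases before the RefSeq start of each gene in GRCm38.p6, 5′ to 3′ on the gene's strand. Capitals mark the letters of 4 motifs on either strand: TCACNCCAC, a form of the sterol regulatory element bound by SREBP; CCAAT, the box bound by NF-Y; GGGCGG, the GC box bound by SP1; and TTCNNNGAA, the palindrome bound by STAT5. Adjoining or overlapping matches share 1 run of capitals.
Hmgcs1, chr13:119690101-119690350 (plus strand): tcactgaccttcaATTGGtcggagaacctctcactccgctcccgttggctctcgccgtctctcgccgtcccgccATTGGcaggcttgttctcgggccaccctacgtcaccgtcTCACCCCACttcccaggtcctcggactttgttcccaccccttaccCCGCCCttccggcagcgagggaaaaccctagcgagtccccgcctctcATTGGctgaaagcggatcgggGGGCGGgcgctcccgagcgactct
Cyp51, chr5:4104698-4104947 (minus strand): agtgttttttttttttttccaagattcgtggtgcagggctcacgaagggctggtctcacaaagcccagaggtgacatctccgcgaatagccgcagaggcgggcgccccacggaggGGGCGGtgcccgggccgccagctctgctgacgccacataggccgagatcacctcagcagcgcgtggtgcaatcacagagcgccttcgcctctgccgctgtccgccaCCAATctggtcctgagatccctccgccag
Idi1, chr13:8885356-8885605 (plus strand): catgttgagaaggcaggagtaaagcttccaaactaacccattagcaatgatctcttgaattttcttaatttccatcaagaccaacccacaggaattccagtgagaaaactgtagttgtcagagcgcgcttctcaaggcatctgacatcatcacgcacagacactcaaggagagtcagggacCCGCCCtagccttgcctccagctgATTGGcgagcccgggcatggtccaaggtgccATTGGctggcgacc
Insig1, chr5:28071162-28071411 (plus strand): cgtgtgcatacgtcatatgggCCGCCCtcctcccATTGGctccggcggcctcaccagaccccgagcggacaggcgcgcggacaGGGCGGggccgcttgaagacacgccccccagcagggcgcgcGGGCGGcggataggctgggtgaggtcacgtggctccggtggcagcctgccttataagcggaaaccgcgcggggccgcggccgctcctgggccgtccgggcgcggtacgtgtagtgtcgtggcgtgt
Ebp, chrX:8193513-8193762 (minus strand): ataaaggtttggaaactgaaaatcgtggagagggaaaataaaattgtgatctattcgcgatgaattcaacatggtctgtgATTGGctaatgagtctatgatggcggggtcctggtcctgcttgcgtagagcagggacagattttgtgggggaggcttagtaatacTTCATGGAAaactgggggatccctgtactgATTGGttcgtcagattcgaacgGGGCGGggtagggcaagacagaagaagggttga

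In the RefSeq windows, which run from 250 bases before to 50 after a start, 22 of the 27 measured genes were found. Sqle, Fdps, Fdft1, Stard4 and Npc1 had no window. The sterol element TCACNCCAC was in 1 of the 22, Hmgcs1, and in 1.44% of the 27025 genes with a window. Unlike the 22, these 27025 were not limited to genes bright enough to be tested. CCAAT was in 20 of the 22, including all 16 enzymes with a window, against 41.1% of all genes. GGGCGG was in 19 of the 22, against 38.2%. TTCNNNGAA was in Ggps1 and Ebp, 2 of the 22, against 9.55%. The CCAAT box was present in genes low on both KO arrays, such as Hmgcs1 and Idi1, and also in Ebp, Ggps1 and Insig2, which were not. A gene with several starts was counted once, by any of its windows. A match of letters describes the window and does not show binding.

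The early isoprenoid steps separated from the branch enzyme. Idi1, whose isomerase makes dimethylallyl pyrophosphate, stood at 1859 and 2226 in WT and at 1252 and 699.6 in KO. Fdps, whose synthase makes farnesyl pyrophosphate, stood at 2903 and 2928 in WT and at 1939 and 1055 in KO. Both genes were lower on both KO arrays, and in both KO replicate 2 was the lowest of the 4. The differences were -1.11 for Idi1 (SE 0.27, limma adjusted p = 0.0873) and -1.02 for Fdps (SE 0.27, adjusted p = 0.102). Ggps1, which extends farnesyl to geranylgeranyl pyrophosphate for protein prenylation, stood at 341 and 435 in WT and at 455 and 443 in KO. Its 4 tested probe sets all lay between 0.063 and 0.26.

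At the squalene steps the 3 genes differed from each other. Fdft1, whose synthase joins farnesyl units into squalene, stood at 2379 and 1851 in WT and at 2686 and 2162 in KO, with overlapping groups. Its difference was 0.20 (95% interval -0.23 to 0.62). The second tested Fdft1 probe set gave 0.31 with both KO arrays above both WT arrays (limma adjusted p = 0.366), and the mean over all its probe sets, including 2 too dim to be tested, was -0.0098. Sqle, whose epoxidase catalyses the first oxygen-dependent step and is a control point of the pathway, stood at 1819 and 2579 in WT and at 687 and 584 in KO. Both KO arrays were far below both WT arrays, at 31.2% and 26.6% of the WT mean. Sqle fell by 1.75 (SE 0.20, limma adjusted p = 0.0203), the 54th largest fall of the 11360 tested genes. The call was lost without WT replicate 2 (-1.50, adjusted p = 0.0763) and with no filter on dim probe sets (adjusted p = 0.0825). In the unfiltered fit 14 genes were called lower and 13 higher of 18193, against 154 and 138 of 11360 in the main fit. Lss, whose cyclase makes lanosterol, stood at 1123 and 765 in WT and at 795 and 396 in KO. KO replicate 1 lay inside the WT range and KO replicate 2 below it, with a difference of -0.71 (SE 0.34, adjusted p = 0.306) and -0.21 for the other tested Lss probe set.

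**Figure D2:**
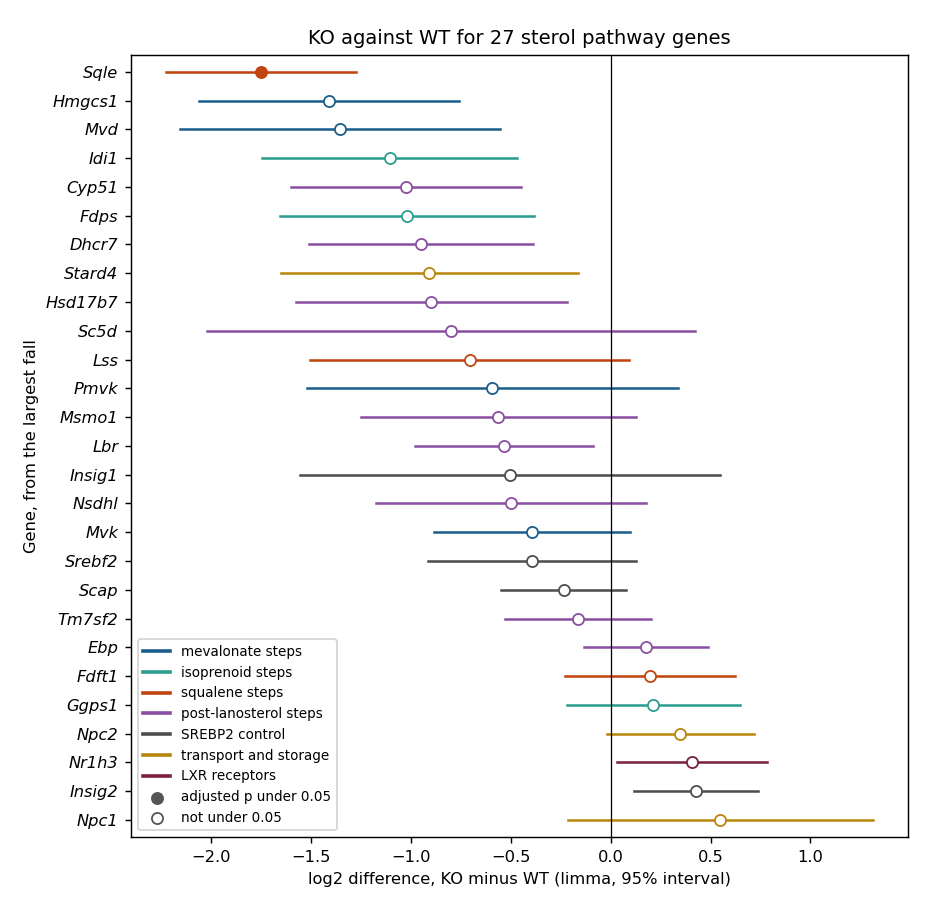
Log2 difference of KO minus WT from limma with its 95% interval for the 27 genes, sorted from the largest fall, coloured by pathway step; a filled point has an adjusted p under 0.05. Sqle alone is filled, at -1.75, and the enzymes Ebp, Fdft1 and Ggps1 lie to the right of 0.

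Of the 9 enzymes after lanosterol, 8 had a difference below 0, against 51.5% of all tested genes. None was called, where 1.36% of all tested genes were called lower and 1.21% higher. The unadjusted limma p was under 0.05 for 4 lower and 0 higher, against 10.8% and 10.4% of all tested genes. Cyp51, the lanosterol demethylase and a cytochrome P450, stood at 685 and 920.2 in WT and at 469 and 311 in KO. Dhcr7, which catalyses the last reduction to cholesterol in one branch, stood at 1368 and 1065 in WT and at 765 and 498 in KO. Hsd17b7, a sterol ketoreductase, stood at 331 and 503 in WT and at 266 and 168 in KO. In these 3 genes both KO arrays were below both WT arrays and KO replicate 2 was the lowest of the 4. The differences were -1.02 for Cyp51 (SE 0.24, limma adjusted p = 0.0812), -0.95 for Dhcr7 (SE 0.24, adjusted p = 0.0922) and -0.90 for Hsd17b7 (SE 0.29, adjusted p = 0.153).

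Another set of late enzymes was low on KO replicate 2 and not on KO replicate 1. Sc5d, the sterol desaturase gene, stood at 3948 and 2817 in WT, at 3539 on KO replicate 1 and at 1029 on KO replicate 2. Nsdhl, the sterol C4 decarboxylase gene, stood at 2319 and 1855 in WT and at 1991 and 1076 on the KO arrays. Msmo1, the C4 methyl oxidase gene, stood at 805 and 1262 in WT and at 863 and 532 in KO. In each of them KO replicate 1 fell within the range of the WT arrays and KO replicate 2 well below it. All 3 tested Sc5d probe sets showed the split, with differences from -0.80 to -0.62. Without KO replicate 2 the Sc5d difference was 0.085.

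The remaining late enzymes showed little distance between the KO arrays. The sterol C14 reductase activity is encoded by both Tm7sf2 and Lbr, the latter also a receptor of the inner nuclear membrane that binds lamin B. Lbr stood at 1797 and 2559 in WT and at 1511 and 1442 in KO (log2 difference -0.53, SE 0.19, limma adjusted p = 0.187). Tm7sf2 stood at 604 and 566 in WT and at 543 and 499.6 in KO, a difference of -0.16 that became 0.19 when arrays were centred on epithelial markers. Ebp, the sterol isomerase gene, stood at 2080 and 1870 in WT and at 2204 and 2255 in KO. Both KO arrays lay just above both WT arrays (0.18, 95% interval -0.14 to 0.49), and Ebp was the one enzyme not lower on KO replicate 2 than on KO replicate 1.

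The genes that control SREBP2 did not move as a block. None of the 4 was called, where 1.36% of all tested genes were called lower and 1.21% higher. The unadjusted limma p was under 0.05 for 0 lower and 1 higher, against 10.8% and 10.4% of all tested genes. Srebf2, which encodes SREBP2, stood at 759.5 and 1059.6 in WT and at 591 and 781 in KO. Scap, its escort and sterol sensor, stood at 1967 and 2142 in WT and at 1689 and 1796 in KO. Both were lower in KO by the mean, Srebf2 with overlapping groups and Scap without overlap, at -0.39 and -0.24. The Scap difference became 0.12 when arrays were centred on epithelial markers. In neither was KO replicate 2 the lower of the KO pair, although the second Srebf2 probe set, at 648 and 990.4 in WT and 718 and 608 in KO, had the other order.

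The 2 INSIG genes had different patterns. Insig1, which SREBP itself induces, stood at 4023 and 5257 in WT, at 5501 on KO replicate 1 and at 1908 on KO replicate 2. KO replicate 1 was the highest of the 4 arrays and KO replicate 2 the lowest, so the mean difference of -0.50 had an SE of 0.44 (limma adjusted p = 0.589). It was 0.26 without KO replicate 2 and -1.26 without KO replicate 1 (adjusted p = 0.0197). Insig2, which can hold SCAP but is not a classical SREBP target, stood at 1228 and 1253 in WT and at 1702 and 1646 in KO. Both KO arrays were above both WT arrays in all 3 tested Insig2 probe sets, with differences of 0.26 to 0.43 and a smallest adjusted p of 0.140.

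Among genes of transport and sensing, Stard4 resembled the enzymes and the others did not. Stard4, a cytosolic sterol carrier and a known SREBP target, stood at 710.3 and 949.7 in WT and at 601 and 308 in KO. Both KO arrays were lower, with differences of -1.20 to -0.91 over its 3 tested probe sets and a smallest limma adjusted p of 0.0943. Npc1, a membrane protein that exports cholesterol from lysosomes, stood at 474 and 405 in WT, at 451 on KO replicate 1 and at 931 on KO replicate 2. KO replicate 1 was inside the WT range and KO replicate 2 at 212% of the WT mean. Npc2, its soluble partner in the lysosome, stood at 10724 and 8269 in WT and at 12757 and 11281 in KO. Nr1h3, which encodes the oxysterol receptor LXR alpha, stood at 982 and 795 in WT and at 1171 and 1182 in KO. Both KO arrays were above both WT arrays for Npc2 and Nr1h3, with differences of 0.35 (SE 0.16, limma adjusted p = 0.276; 0.16 with overlapping groups for the Npc2 probe set next in brightness) and 0.41 (SE 0.16, adjusted p = 0.223).

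**Figure D3:**
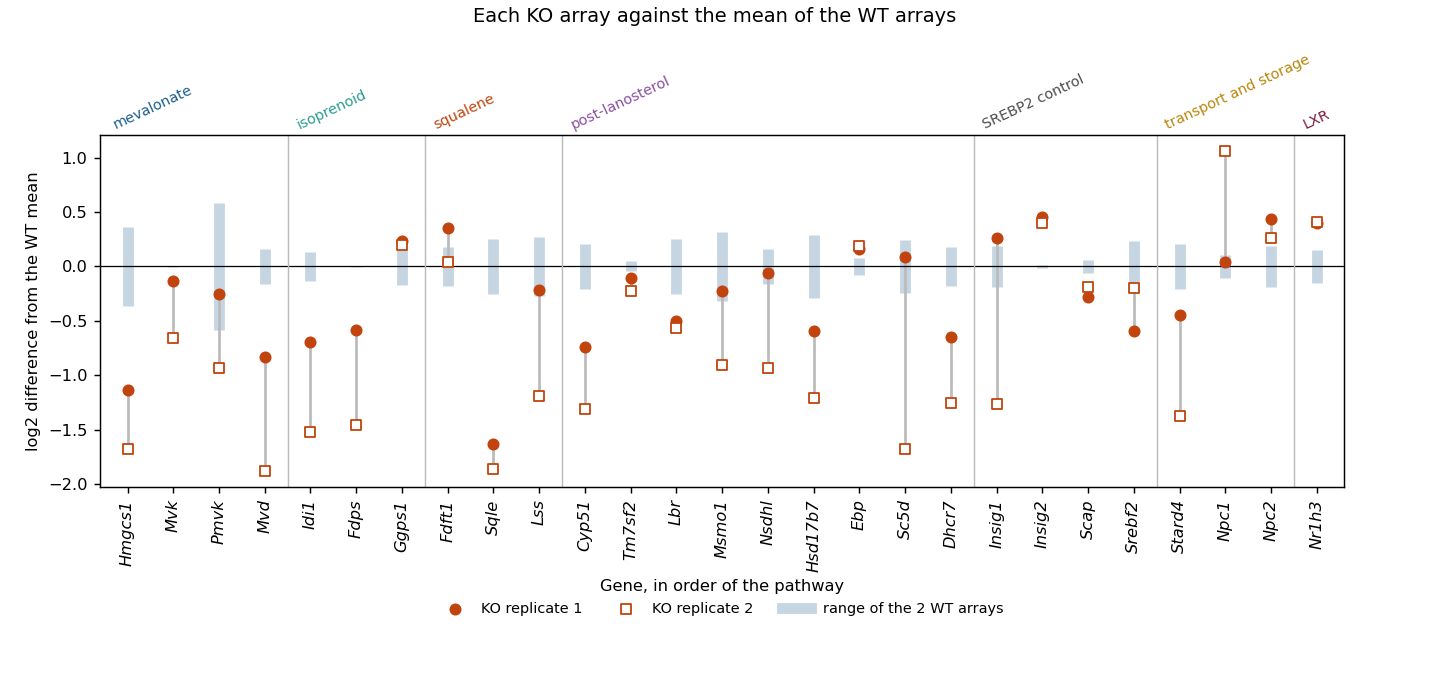
Log2 difference of each KO array from the mean of the WT arrays for the 27 genes in pathway order; filled circles are KO replicate 1, open squares KO replicate 2, and blue bars span the WT arrays. KO replicate 2 is the lower of the pair for 22 of 27 genes, and Sc5d and Insig1 show the widest gaps, -1.77 and -1.52.

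The KO mice differed from each other along the pathway. The signal was lower on KO replicate 2 than on KO replicate 1 for 22 of the 27 genes and for 18 of the 19 enzymes, where 44.8% of all tested genes were. A gap of 0.5 or more on the log2 scale in this direction, a limit chosen after the values were seen, was found in 15 of the 27 genes and in 5.65% of all tested genes. KO replicate 1 lay below both WT arrays for 11 of 19 enzymes and KO replicate 2 for 16 of 19, against 41.7% and 38.7% of all tested genes. They lay above both WT arrays for 3 and 2 enzymes, against 38.4% and 38.5%. The median enzyme difference from the WT mean was -0.25 for KO replicate 1 and -1.19 for KO replicate 2, and that of all tested genes was -0.015 and -0.00021. The summed signal of the 19 enzymes was 32230 and 34010 on the WT arrays, 24654 on KO replicate 1 and 16216 on KO replicate 2.

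When KO replicate 2 alone was set against the WT arrays, 11 of the 27 genes were called lower and 1 higher, against 1.87% and 1.5% of all tested genes in that fit. The lower genes were Fdps, Mvd, Sqle, Idi1, Sc5d, Hmgcs1, Dhcr7, Cyp51 and Nsdhl among the enzymes, with Insig1 and Stard4, and the higher one was Npc1 (1.06, limma adjusted p = 0.0410). Fdps had the smallest adjusted p, 0.00651, at -1.45. With KO replicate 1 alone, Sqle was called lower (-1.63) and no other of the 27, against 3.44% lower and 1.85% higher of all tested genes. In these fits the lone KO array is assumed to vary as the WT pair does, and in the next ones the lone WT array as the KO pair does, though the KO mice differed along this pathway. Without WT replicate 1, Sqle and Hmgcs1 were called lower, against 0.325% lower and 0.554% higher of all tested genes. Without WT replicate 2, the median log2 difference of the 27 genes was -0.40, against -0.011 for all tested genes in that fit. The difference between the KO arrays has no replicate of its own and was not tested.

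Some other measures also differed between the KO mice. The brighter probe sets of Stat5a and Stat5b, the 2 genes of STAT5, stood at 84.1% and 70.6% of the WT mean on KO replicate 1 and at 39.4% and 47.0% on KO replicate 2. The other tested probe set of each stood at 60.2% and 65.4% on KO replicate 1 and at 29.1% and 36.9% on KO replicate 2. Neither gene was called (limma adjusted p = 0.246 and 0.102 for the brighter probe sets, 0.106 and 0.121 for the others). The labels do not say which part of STAT5 was deleted, so these probe sets need not check the genotype. General epithelial markers went the other way, with 23 of 24 higher on KO replicate 2 than on KO replicate 1, against 55.2% of all tested genes. Their summed signal was 58346 and 61338 in WT against 40673 and 63288 in KO. Skeletal muscle markers were lower on KO replicate 2 in 13 of 13, against 44.8% of all tested genes. Of these markers, 8 had both WT signals under the filter limit. The summed signal of the 13 was 3768 and 1873 in WT and 13360.0 and 7519.9 in KO. Adipocyte markers were lower on KO replicate 2 in 6 of 12, near the 44.8% of all tested genes. Their summed signal was 160114 and 147855 in WT and 163393 and 159514 in KO. Macrophage markers were lower on KO replicate 2 in 8 of 13, against the same 44.8%, with sums of 42728 and 37697 in WT and 46612 and 47950 in KO. Of the listed markers, 24 of 25 epithelial, 13 of 15 muscle, 12 of 15 adipocyte and 13 of 14 macrophage genes were tested, and no tested marker was under the array median on both KO arrays. The part of these measures in the sterol pattern was not tested.

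Cell cycle genes, which also stood low in KO, had the opposite order of the KO mice. Of 22 tested, 11 fell, 0 rose and 11 did not pass, with a median of -1.36, against 1.36% called lower and 1.21% called higher of all tested genes. All 22 were higher on KO replicate 2 than on KO replicate 1, as were 55.2% of all tested genes. The replication helicase gene Mcm6 stood at 2571 and 3123 in WT and at 737 and 993 in KO, whereas Fdps was lowest on KO replicate 2.

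**Figure D4:**
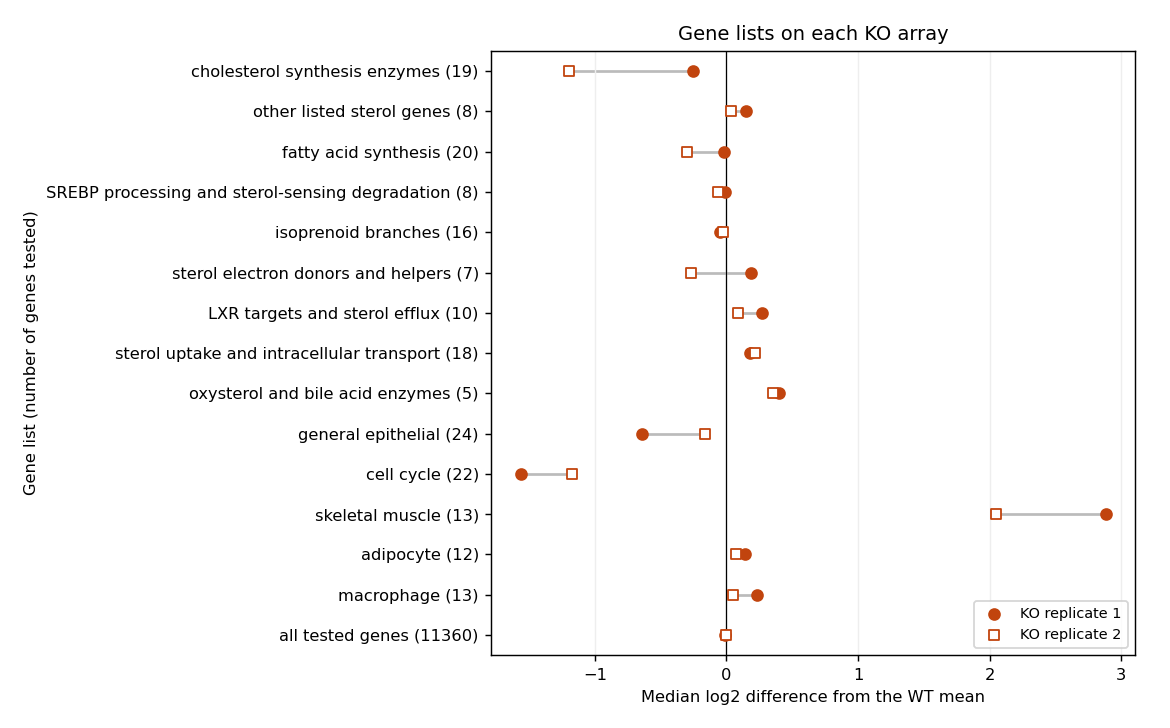
Median log2 difference from the WT mean on KO replicate 1 (filled circles) and KO replicate 2 (open squares) for each gene list, with the number of genes tested. The cholesterol synthesis enzymes move from -0.25 to -1.19 between the KO arrays, while general epithelial markers move from -0.64 to -0.16 and cell cycle genes from -1.56 to -1.18.

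Genes of fatty acid synthesis, many of them targets of the related factor SREBP1, shared the order of the KO arrays but not its size. Of 20 tested, 18 were lower on KO replicate 2 than on KO replicate 1, against 44.8% of all tested genes, and the median difference from WT was -0.016 and -0.30 on the KO arrays. The list had 1 of 20 members called lower, Fads2, and 0 higher, against 1.36% and 1.21% of all tested genes. Fads2, a fatty acid desaturase, stood at 1848 and 1897 in WT and at 745 and 719 in KO, so that both KO arrays were low. Acss2 and Elovl6 were low on KO replicate 2 alone, as Sc5d and Insig1 were; these genes, Scd2 and Srebf1 are named after their values were seen. Acss2, which makes acetyl-CoA from acetate, stood at 106% of the WT mean on KO replicate 1 and at 32.6% on KO replicate 2. Elovl6, a fatty acid elongase, stood at 114% and 32.7%. Scd2, a stearoyl-CoA desaturase, was below both WT arrays on both KO arrays, at 72.7% and 30.1%. Srebf1, which encodes SREBP1, stood at 8739 and 7564 in WT and at 8508 and 4992 in KO.

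The neighbouring gene lists had no member called by limma. Their counts at an unadjusted p under 0.05 stand against 10.8% lower and 10.4% higher of all tested genes. Of 8 genes of SREBP processing and sterol-dependent degradation, none had an unadjusted p under 0.05, the median was -0.056, and the largest difference was that of Spring1, a SCAP cofactor, at -0.23. Of 16 genes of the isoprenoid branches to ubiquinone, dolichol and prenylation, none had an unadjusted p under 0.05, the median was -0.037, and Rce1, a protease of prenylated proteins, was at -0.53. Of 7 electron donors and helpers of sterol enzymes, 1 lower and 3 higher had an unadjusted p under 0.05, with a median of -0.10. Pgrmc2, a haem-binding membrane protein chosen after its value was seen, had the smallest p of the list, at 0.59 (adjusted p = 0.0570). Tmem97, a sterol-regulated protein that binds NPC1, was at -0.78 (261 and 358 in WT, 178 and 166 in KO, adjusted p = 0.113).

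Lists of sterol export, uptake, transport and breakdown had medians above 0 and no member called by limma; 10.8% of all tested genes were lower and 10.4% higher at an unadjusted p under 0.05. Of 10 LXR targets and efflux genes, 0 lower and 2 higher had an unadjusted p under 0.05, with a median of 0.21, and Mylip, an ubiquitin ligase induced by LXR, was at 0.40 (limma adjusted p = 0.374). Of 18 genes of sterol uptake and intracellular transport, 0 lower and 4 higher had an unadjusted p under 0.05, with a median of 0.15, and both KO arrays were above both WT arrays for 11 of 18, against 26.2% of all tested genes. Osbpl11, an oxysterol-binding protein relative, stood at 1778 and 1812 in WT and at 2690 and 3252 in KO (0.72, adjusted p = 0.0584). Of 5 oxysterol and bile acid enzymes, 0 lower and 1 higher had an unadjusted p under 0.05, with a median of 0.40, and Cyp7b1, an oxysterol hydroxylase, was at 0.57 (adjusted p = 0.339).

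Where a gene had several tested probe sets, they gave 1 sign. This held for all 14 of the 27 genes with more than 1 tested probe set. The other 13 rest on a single tested probe set, Sqle, Insig1 and Npc1 among them. No second tested probe set was called, and the closest was that of Mvd.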

How the data were processed

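The authors deposited 1 linear intensity per probe set and array. It was computed with MAS5, per the submitters' processing notes, in a version not given in the sources used here. After trimming 2% of probe sets at either end, each of the 4 arrays had a mean signal of 500.002. Median signals were 131 and 131 in WT and 121 and 124 in KO. Detection calls were not used here. Precision is limited by having 2 arrays per genotype.

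The 64 control probe sets were left out of 45101. Probe sets were named through GEO's platform annotation, whose symbols may be out of date. Probe sets with a mean log2(signal + 16) at or above the median of 7.15 were tested, 22519 in all, and 2 residual degrees of freedom remained. The genotypes were compared with limma 3.58.1 under R 4.3.3 (lmFit, eBayes with a variance trend), which was tested on simulated data. An exact permutation test of 2 against 2 cannot go below p = 0.333. The limma p-values reflect only how far these 4 mice differ, with the variance of each probe set drawn towards that of others.

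All measured members are named. From each other list, up to 3 called genes or the one with the largest difference are named, and others are said to be chosen after their values were seen; called cell type markers are given as counts. General epithelial markers had 1 called lower and 1 higher of 24, and skeletal muscle markers 0 lower and 5 higher of 13. All 5 passed the filter through their KO signals alone, so the count supports nothing. Adipocyte and macrophage markers had 0 of 12 and 0 of 13 called. At an unadjusted limma p under 0.05, 1 adipocyte marker was lower and 1 higher, and 1 macrophage marker was lower and 6 higher. Of all tested genes, 1.36% were called lower and 1.21% higher. At the unadjusted p these shares were 10.8% and 10.4%. Members and lists were chosen with earlier results of these data known. Promoter sequences are from RefSeq, GRCm38.p6. Alternatives were pseudocounts of 1 and 64, 3 other scalings, 2 other filters, the mean of all probe sets, no variance trend, and each array left out.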

Additional observations from a re-analysis of the deposited data

How the results depend on the processing

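Over the 27 genes and all alternatives, 325 values kept their direction and side of the threshold, 12 gained a call, 2 lost it (both Sqle) and 5 turned sign. The 5 were Fdft1 with the mean of all probe sets (-0.0098), Tm7sf2 and Scap centred on epithelial markers (0.19 and 0.12), and Sc5d and Insig1 without KO replicate 2 (0.085 and 0.26, against -1.68 and -1.26 without KO replicate 1). Of the 12 gained calls, 11 came without KO replicate 1 and 1 without WT replicate 1. With no filter on dim probe sets 18193 genes were tested. Calls over all genes went from 154 lower and 138 higher to 14 and 13. The number of the 27 genes called was 1 in the main fit and 0 in the unfiltered one. When single arrays were dropped it ran from 0 to 12: 0 without WT replicate 2, 1 without KO replicate 2, 2 without WT replicate 1 and 12 without KO replicate 1. The median log2 difference of the 27 genes was -0.53 and lay between -0.93 and -0.22 when single arrays were dropped. It was -0.18 centred on epithelial markers, which moved the median of all genes from -0.0099 to 0.35. After this centring the share of calls that were lower changed as well, with 63 lower and 197 higher of all genes against 154 and 138; with each array centred on its median it was 119 and 192. The filter at the 75th percentile left 20 of the 27 genes. Centring on epithelial markers or on the array median subtracts 1 value from each array. The log2 difference of every gene therefore moves by the same amount in such a fit. Except with the mean of all probe sets, the brightest probe set of a gene was picked again in each fit. For Npc2 it was another one without KO replicate 1 (0.086) and without KO replicate 2 (0.24), against 0.35 in the main fit. The cause of the remaining shifts was not tested. No paired analysis was possible because the labels give no replicate numbers: those used here follow the order of deposit and pair no mice. With 2 mice per genotype, a difference within the spread of the KO pair could not be shown.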
